A study of Mus musculus with 6 samples.

Results

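Ly6a, Ly6c1, Ly6c2, Ly6e, Thy1, Cd24a, Cd48, Cd52 and Nt5e encode surface proteins held on the membrane of T cells by a glycosylphosphatidylinositol (GPI) anchor. They were picked by gene symbol, and all 9 symbols were found in all 6 libraries, which list 34745 genes each. All 9 also reached the minimum set for testing, a mean of 1 FPKM (the count scaled to gene length and to the library total), as did 9627 genes in all. The libraries are RNA-seq of CD8+ effector T cells (Teff), 3 from wild-type (WT) and 3 from Scd-1-/- mice. Scd1 encodes a desaturase that makes monounsaturated fatty acids such as oleic acid.

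Splenic CD8+ T cells of both genotypes were isolated with a magnetic kit and stimulated for 3 days with 5 μg/mL anti-CD3, 0.5 μg/mL anti-CD28 and 100 U/mL IL-2. They were then washed, held in IL-2 for a further 3 days and harvested at day 6. The mice were male and 6 to 8 weeks old. The Scd-1-/- animals were the B6.129-Scd1tm1Ntam/J line, in which every cell lacks the gene, and the WT animals were purchased C57BL/6J mice. Littermate controls are not mentioned, so an effect of the genotype and one of the colony cannot be told apart. The labels do not say whether the libraries of a group came from separate mice, and the p-values measure the spread between these libraries, which may be technical.

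A GPI-anchored protein has no transmembrane or cytoplasmic part. Its precursor loses a C-terminal signal in the endoplasmic reticulum and receives a lipid anchor in exchange, and the finished protein sits in the outer leaflet of the membrane, often in regions rich in cholesterol and saturated lipid. On T cells such proteins act as markers of activation and memory, as ligands for receptors on other cells and as enzymes that work outside the cell.

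The libraries held between 14034479 and 15866216 counts, and the 9 genes took 0.426% to 0.500% of them. An unseen gene could still have had up to 3 counts, which is 0.189 to 0.214 CPM (counts scaled to the library total) and covers counting error only. Scd1 had between 3074 and 4272 counts in the WT libraries and between 20 and 36 in the Scd-1-/- libraries. The 7 markers of CD8 T cells were all present, with a summed level of 2607 to 3290 FPKM in the WT and 2711 to 3088 FPKM in the Scd-1-/- libraries. Cd8a was 45.9 ± 2.42 FPKM in WT Teff and 32.7 ± 4.46 FPKM in Scd-1-/- libraries (SD, n = 3; adjusted p = 0.297, edgeR with Benjamini-Hochberg adjustment). Both libraries numbered 1 deviated from their groups in the same way across the transcriptome, so results are also given for replicates 2 and 3 alone. The replicate number also served as a block, but the labels do not say what it stands for. Correlations between libraries did not match replicates 2 and 3 by number across the genotypes, so blocked calls rest on an unverified pairing. A gene was called at an adjusted p under 0.05, and counts past the study's thresholds (a log2 fold change of 1 or more in either direction and an unadjusted p under 0.001) are given as well. In these bulk libraries, fewer cells of a type and less RNA per cell cannot be told apart.

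Ly6c1 and Ly6c2 encode the Ly6C antigen, which is low on naive CD8+ T cells and higher on effector and memory cells. They are neighbouring copies on chromosome 15 that most antibodies to Ly6C do not separate. Their coding sequences, without the stop codon, are 393 bases long each and 97.7% identical, with 9 bases that differ. The opening 300 coding bases of the GENCODE M21 transcripts are shown because counting by gene has to tell these copies apart, and capitals mark the 7 bases that differ between them.
Ly6c1: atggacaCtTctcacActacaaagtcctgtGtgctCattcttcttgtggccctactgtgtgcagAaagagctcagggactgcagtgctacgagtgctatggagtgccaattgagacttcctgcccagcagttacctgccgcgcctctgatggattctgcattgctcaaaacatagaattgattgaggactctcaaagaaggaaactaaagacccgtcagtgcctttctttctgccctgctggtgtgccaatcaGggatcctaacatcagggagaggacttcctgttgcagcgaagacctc
Ly6c2: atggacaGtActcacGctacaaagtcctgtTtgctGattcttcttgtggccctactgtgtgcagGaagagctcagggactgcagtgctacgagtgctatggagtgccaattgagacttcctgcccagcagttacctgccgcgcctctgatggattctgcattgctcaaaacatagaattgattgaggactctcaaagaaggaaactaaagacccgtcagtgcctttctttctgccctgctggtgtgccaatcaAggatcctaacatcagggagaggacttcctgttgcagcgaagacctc

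Of the stretches of 100 bases in the longest coding transcript, 15.3% in Ly6c1 and 15.8% in Ly6c2 were identical in the other gene. The division of counts between them is therefore uncertain. Ly6c1 took 4.56% to 5.82% of the counts of the pair in every library, with overlapping ranges in WT (4.86%, 5.07% and 5.82%) and Scd-1-/- Teff (4.56%, 5.29% and 5.22%). No other of the 9 genes shared more than 0.116% of such stretches with another gene.

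The 250 bases ahead of each start, taken from RefSeq on GRCm38.p6 and given 5′ to 3′ in the direction of the gene, are shown because both copies had higher values in the same libraries. Both lie on the minus strand, Ly6c1 at chr15:75048838-75049087 and Ly6c2 at chr15:75111972-75112221. Capitals mark runs of at least 12 bases present in both, which cover 47 bases or 18.8% of each.
Ly6c1 upstream: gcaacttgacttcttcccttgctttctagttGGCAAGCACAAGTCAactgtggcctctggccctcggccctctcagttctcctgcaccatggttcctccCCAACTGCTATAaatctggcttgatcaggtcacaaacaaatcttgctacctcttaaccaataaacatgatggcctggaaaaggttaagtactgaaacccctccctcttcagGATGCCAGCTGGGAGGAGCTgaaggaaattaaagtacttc
Ly6c2 upstream: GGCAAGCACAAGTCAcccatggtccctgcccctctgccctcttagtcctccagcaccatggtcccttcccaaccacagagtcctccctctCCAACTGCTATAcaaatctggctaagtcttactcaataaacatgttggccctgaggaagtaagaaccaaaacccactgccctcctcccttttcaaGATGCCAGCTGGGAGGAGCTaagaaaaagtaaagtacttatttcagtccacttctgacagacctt

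RefSeq sequence of this kind was matched for 4 of the 9 genes, Ly6c1, Ly6c2, Cd48 and Nt5e. Searched on both strands, the STAT site TTCNNNGAA and the core of the interferon-stimulated response element (GAAA, any 2 bases, GAAA) were in none of these 4, against 7.14% and 3.05% of 27025 upstream sequences of the same length. The RUNX core ACCACA was present in Ly6c2 and Cd48, and in 14.2% of all of them. TATAAA was present in Ly6c1, and in 13.0% of all. A match is a description of letters and not of a bound site.

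Ly6c2 (ENSMUSG00000022584, chr15:75108158-75111970, minus strand of GRCm38) was measured at 178, 90.2 and 99.9 FPKM in WT replicates 1, 2 and 3, and at 203, 167 and 183 FPKM in Scd-1-/- replicates 1, 2 and 3. All 3 Scd-1-/- libraries were high, and WT replicate 1 lay among them while the other 2 WT libraries were lower. The group means were 123 ± 48.3 and 184 ± 18.2 FPKM (SD, n = 3). Across all 6 libraries the edgeR quasi-likelihood test gave a log2 fold change of 0.60 (SE 0.267, 95% interval -0.02 to 1.22), which did not pass (Benjamini-Hochberg adjusted p = 0.510).

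Ly6c1 (ENSMUSG00000079018, chr15:75044018-75048830, minus strand) had a lower level, at 12.1, 6.38 and 8.18 FPKM in WT Teff and 12.9, 12.4 and 13.3 FPKM in Scd-1-/- Teff. Its groups did not overlap, but WT replicate 1 came within 1.07-fold of its Scd-1-/- counterpart. The log2 fold change was 0.55 (SE 0.246, 95% interval -0.02 to 1.13, adjusted p = 0.516 by edgeR with Benjamini-Hochberg adjustment).

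Since reads may be split between the copies, their counts were also added. The sum was 12398, 5815 and 6579 counts in WT replicates 1 to 3, and 14467, 10852 and 13347 counts in the Scd-1-/- replicates. The pattern of the sum was that of Ly6c2, with WT replicate 1 above the lowest Scd-1-/- library. The summed log2 fold change was 0.60 (SE 0.264, adjusted p = 0.506, edgeR with Benjamini-Hochberg adjustment). Without WT replicate 1 it was 0.99 (adjusted p = 0.0273), and with replicates 2 and 3 alone 0.91 (adjusted p = 0.00101). Without WT replicate 2 it was 0.42 (adjusted p = 0.995) and without WT replicate 3 it was 0.46 (adjusted p = 0.794). In the fit of replicates 2 and 3 alone both copies rose, Ly6c1 by 0.86 (adjusted p = 0.0139) and Ly6c2 by 0.92 on the log2 scale (adjusted p = 0.000934). With the replicate number as a block, neither copy passed (adjusted p = 0.105 and 0.0512).

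Ly6C also marks monocytes, so the myeloid markers were read beside these values. Their summed level was 0.228 to 0.711 FPKM in the WT and 1.88 to 2.57 FPKM in the Scd-1-/- libraries, and 4 of the 10, Adgre1, Fcgr1, Mpo and S100a9, were at 0 in every library. Csf1r and Lyz2 stayed under 0.1 FPKM in both group means. Cd14 was higher in every Scd-1-/- library (28, 42 and 40 counts) than in any WT library (11, 5 and 4 counts) and passed the study's thresholds in the edgeR fit without an FPKM minimum. Itgam had 16, 0 and 5 counts in WT and 83, 13 and 16 counts in Scd-1-/- Teff (unadjusted p = 0.0351, adjusted p = 0.524, edgeR with Benjamini-Hochberg adjustment), with overlap. The part of myeloid RNA in the Ly6c values was not tested.

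**Figure D1:**
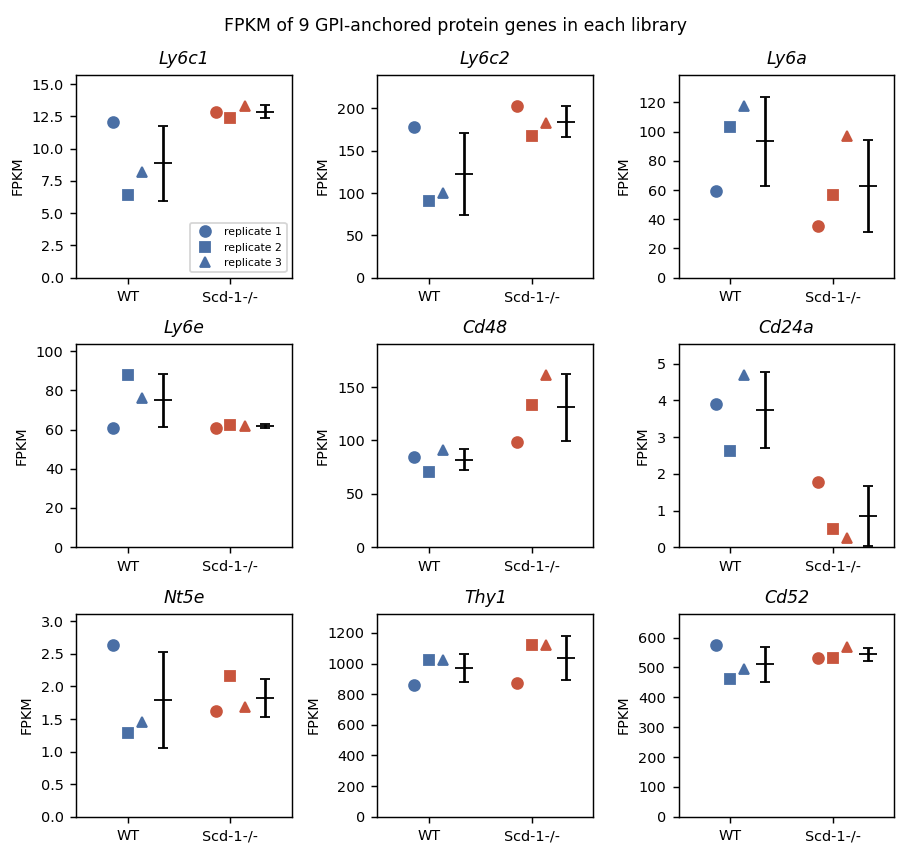
FPKM (y axes, linear and starting at 0) of the 9 GPI-anchored protein genes in each library, with symbols for the replicate number and bars for the mean and SD of 3 libraries per genotype. The genotypes do not overlap for Ly6c1, Cd48 and Cd24a, while WT replicate 1 lies near the Scd-1-/- libraries for Ly6c1 and Ly6c2.

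Ly6a encodes Sca-1, a marker of blood stem cells that activated and memory T cells also carry and that interferons induce. Ly6a (ENSMUSG00000075602, chr15:74994877-74998031, minus strand) was at 59.3, 103 and 118 FPKM in WT Teff and at 35.1, 56.6 and 96.9 FPKM in Scd-1-/- Teff, replicates 1 to 3. The replicate 1 libraries were the lowest of both genotypes, and the groups overlapped. Each Scd-1-/- library was nevertheless lower than the WT library of its own number, at ratios of 0.592, 0.547 and 0.822.

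The mean level of Ly6a was 93.5 ± 30.5 FPKM in the WT and 62.8 ± 31.4 FPKM in the Scd-1-/- libraries (SD, n = 3). The log2 fold change of -0.54 (SE 0.381, adjusted p = 0.704) did not pass by edgeR with Benjamini-Hochberg adjustment. When the replicate number was a block, the log2 fold change was -0.61 with a smaller error (SE 0.135), and Ly6a fell (adjusted p = 0.0460). Ly6a passed in no other fit. Replicates 2 and 3 alone gave -0.49 (adjusted p = 0.173). Single libraries moved the unblocked value, to -0.26 without Scd-1-/- replicate 1, -0.36 without WT replicate 3 and -1.01 without Scd-1-/- replicate 3, with the adjusted p between 0.366 and 0.996 whichever library was left out.

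Ly6e, whose product is an interferon-induced protein known for blocking the entry of coronaviruses, lies in the same cluster as Ly6a (ENSMUSG00000022587, chr15:74955051-74959905, plus strand). It was at 60.6, 87.8 and 76.3 FPKM in WT Teff and 60.5, 62.6 and 61.9 FPKM in Scd-1-/- Teff. The Scd-1-/- libraries were within 1.03-fold of each other, and WT replicate 1 lay at their level while the other WT libraries were higher. The log2 fold change was -0.26 (SE 0.145, 95% interval -0.59 to 0.08) and passed neither without the block (adjusted p = 0.620) nor with it (adjusted p = 0.260, both edgeR with Benjamini-Hochberg adjustment). Without WT replicate 2 the value was -0.12, and without WT replicate 1 it was -0.37. With replicates 2 and 3 alone it was -0.36 (95% interval -0.62 to -0.11, unadjusted p = 0.0111, adjusted p = 0.0690, edgeR with Benjamini-Hochberg adjustment).

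The stretch of chromosome 15 from Ly6e to Ly6c2 spans 156920 bases and holds 11 annotated genes, 5 of them protein coding. The fifth, Ly6i, had 6, 5 and 16 counts in WT and 0, 0 and 1 count in Scd-1-/- Teff, and the 6 noncoding entries had at most 2 counts in any library. The members in this cluster did not share a direction: the fold changes of Ly6c1 and Ly6c2 were above 0 and those of Ly6a and Ly6e below it. In coding sequence Ly6a was 82.8% identical to Ly6c1, 82.4% to Ly6c2 and 58.4% to Ly6e.

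Because Ly6a and Ly6e answer to interferon, 15 other interferon-stimulated genes were read beside them. Their summed level was 66.1 to 68.7 FPKM in the WT and 40.1 to 62.2 FPKM in the Scd-1-/- libraries. Of the 12 that were tested, 3 had a fold change above 0 and 9 below, with a median log2 fold change of -0.28 against 0.00 over all genes tested. By the unblocked edgeR fit 0 passed either the study's thresholds or an adjusted p under 0.05, and 4 had an unadjusted p under 0.05, as did 10.1% of all genes tested. DESeq2 and limma also gave 4 at an unadjusted p under 0.05 (11.1% and 10.4% of all genes). By the study's thresholds DESeq2 called 1 gene and limma 0, against 161 and 56 of 9627 genes. The adjusted p also gave 1 and 0 (share of all genes not counted). Oas3 and Stat2, among those with the highest level, were at 11.2 ± 0.973 and 10.8 ± 2.51 FPKM in WT Teff and at 8.89 ± 2.46 and 6.22 ± 0.965 FPKM in Scd-1-/- Teff.

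With the replicate block 3 genes of the list had an adjusted p under 0.05 (4.7% of all genes) and 2 passed the study's thresholds (1.91% of all genes). Among the 3, the antiviral GTPase gene Mx1 rose (log2 fold change 1.36, adjusted p = 0.0326) and the signalling gene Irf9 fell (adjusted p = 0.0441, edgeR with Benjamini-Hochberg adjustment). In that fit Mx1 passed the study's thresholds too. Mx1 and Irf9 were named after their values were seen. The part of interferon signalling in the values of Ly6a and Ly6e was not tested.

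Cd48 encodes a ligand of the SLAM family that binds CD2 and, with higher affinity, CD244 (2B4). Cd48 (ENSMUSG00000015355, chr1:171682009-171705258, plus strand) was at 84.6, 70.9 and 90.9 FPKM in WT Teff and at 98.8, 133 and 161 FPKM in Scd-1-/- Teff. Every Scd-1-/- library was above every WT library, and Scd-1-/- replicate 1 was the nearest to the WT group. The means were 82.1 ± 10.2 and 131 ± 31.3 FPKM (SD, n = 3).

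By the edgeR test Cd48 was 1.62-fold higher in Scd-1-/- Teff (log2 fold change 0.70, SE 0.197, 95% interval 0.24 to 1.16). Its unadjusted p of 0.00815 did not pass after adjustment (adjusted p = 0.273, Benjamini-Hochberg), whereas it rose with the replicate block (0.68, adjusted p = 0.0444). It also rose with replicates 2 and 3 alone (0.90, adjusted p = 0.00526) and without Scd-1-/- replicate 1 (0.86, adjusted p = 0.0498). Without Scd-1-/- replicate 3 the value was 0.52 (adjusted p = 0.798, all edgeR). A second annotated gene on the same strand, Gm37010, overlaps Cd48 and had at most 2 counts.

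The receptors of CD48 were read next. Cd244 was at 2.81, 1.08 and 1.42 FPKM in WT Teff and 5.94, 8.42 and 7.81 FPKM in Scd-1-/- Teff, with no overlap. It passed the thresholds of the study (log2 fold change 2.07, SE 0.368, unadjusted p = 0.000567, adjusted p = 0.0921 by edgeR with Benjamini-Hochberg adjustment), and with the replicate block its adjusted p was 0.0171. Cd2 was at 152 ± 29.0 and 155 ± 11.3 FPKM (log2 fold change 0.06, adjusted p = 0.946). CD244 is also carried by natural killer cells. Of their 2 markers, Ncr1 stayed under 0.2 FPKM in both group means and Klrb1c was at 0.748 ± 0.224 FPKM in the WT and 6.28 ± 4.08 FPKM in the Scd-1-/- libraries (adjusted p = 0.121, with the block 0.00591). The part of natural killer cells in the Cd244 value was not tested.

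**Figure D2:**
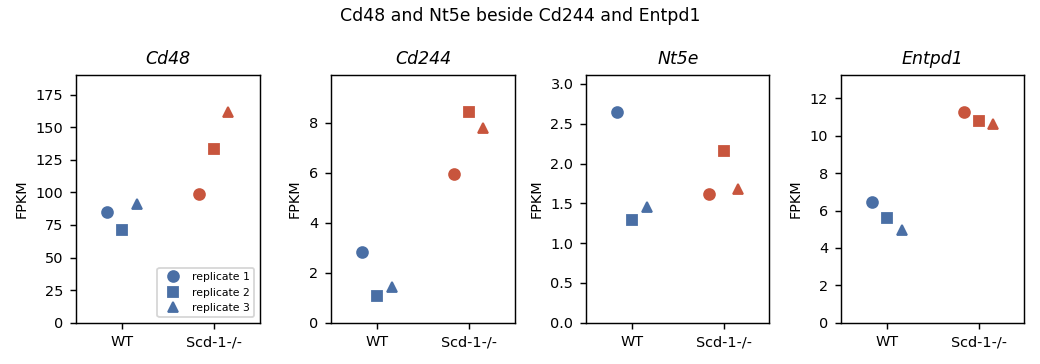
FPKM (y axes, linear and starting at 0) of Cd48 and its receptor gene Cd244, and of Nt5e and Entpd1, which act in sequence on extracellular ATP, with 1 point per library and symbols for the replicate number. Cd48, Cd244 and Entpd1 are higher in every Scd-1-/- library than in any WT library, whereas the points of Nt5e overlap.

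Nt5e encodes CD73, the enzyme that makes adenosine from AMP on the cell surface, after CD39 (Entpd1) has made AMP from ATP. Nt5e (ENSMUSG00000032420, chr9:88327197-88372092, plus strand) had low levels, at 2.64, 1.29 and 1.45 FPKM in WT Teff and 1.62, 2.15 and 1.68 FPKM in Scd-1-/- Teff. WT replicate 1 was the highest library of all 6, and the Scd-1-/- libraries lay between it and the other WT libraries. The log2 fold change was 0.03 (SE 0.307, 95% interval -0.68 to 0.75, adjusted p = 0.984 by edgeR with Benjamini-Hochberg adjustment). The sign of this fold change turned to -0.16 without WT replicate 2, to -0.11 without WT replicate 3 and to -0.10 with Scd-1-/- replicate 2 left out. It was 0.44 without WT replicate 1, and 0.52 with replicates 2 and 3 alone (95% interval 0.08 to 0.95, unadjusted p = 0.0249, adjusted p = 0.113, edgeR with Benjamini-Hochberg adjustment).

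Entpd1 was at 6.47, 5.58 and 4.94 FPKM in WT Teff and at 11.3, 10.8 and 10.7 FPKM in Scd-1-/- Teff, close together within each genotype. Its log2 fold change of 0.96 (SE 0.157, unadjusted p = 0.000320) was just under the threshold of the study, and Entpd1 rose with the replicate block (adjusted p = 0.00810, edgeR with Benjamini-Hochberg adjustment; 0.0847 without it). Ada, which removes adenosine, was at 11.0 ± 2.86 and 6.18 ± 0.638 FPKM (log2 fold change -0.80, adjusted p = 0.284, with the block 0.0641). The adenosine receptor gene Adora2a was at 22.9 ± 2.04 and 25.3 ± 1.65 FPKM (log2 fold change 0.17, adjusted p = 0.790).

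Cd24a encodes heat-stable antigen, a short and heavily glycosylated protein that is abundant on developing lymphocytes, B cells and red cell precursors and that T cells carry after activation. Cd24a (ENSMUSG00000047139, chr10:43578284-43584265, plus strand) had 107, 67 and 121 counts in WT and 50, 13 and 7 counts in Scd-1-/- Teff. These were 3.89, 2.63 and 4.69 FPKM in WT Teff and 1.77, 0.508 and 0.243 FPKM in Scd-1-/- Teff. All Scd-1-/- libraries were below all WT libraries, and they differed among themselves by 7.28-fold, replicate 1 being the highest.

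The edgeR test gave a 4.34-fold lower level of Cd24a in Scd-1-/- Teff (log2 fold change -2.12, SE 0.640, 95% interval -3.60 to -0.63), with an unadjusted p of 0.0114 and an adjusted p of 0.305 (Benjamini-Hochberg). Cd24a fell in the fit with the replicate block (-2.31, adjusted p = 0.0442). It fell past the thresholds of the study with replicates 2 and 3 alone (-3.25, adjusted p = 0.00214) and without Scd-1-/- replicate 1 (-3.29, adjusted p = 0.0182). Without Scd-1-/- replicate 2 the value was -1.86 (adjusted p = 0.715) and without Scd-1-/- replicate 3 it was -1.68 (adjusted p = 0.712, all edgeR). The study displayed Cd24a from these same libraries, so its direction here is not independent evidence.

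Since B cells carry much CD24, their markers were read beside Cd24a. Ms4a1 and Pax5 were at 0 in every library, and Cd79a and Ebf1 stayed under 0.05 FPKM in both group means. Cd79b was at 10.7, 9.41 and 10.3 FPKM in WT Teff and 7.90, 3.13 and 3.68 FPKM in Scd-1-/- Teff, with replicate 1 again the highest Scd-1-/- library (log2 fold change -1.02, adjusted p = 0.387, with the block 0.0434, edgeR with Benjamini-Hochberg adjustment). The summed level of the 6 markers was 9.42 to 10.7 FPKM in WT Teff and 3.13 to 7.996 FPKM in Scd-1-/- Teff. The 7 erythroid markers summed to 0.301 to 0.787 and 0.689 to 1.06 FPKM. The part of Cd79b-positive or erythroid cells in the Cd24a value was not tested.

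Thy1 encodes CD90, the classical surface marker of mouse T cells, and was at 863, 1022 and 1023 FPKM in WT Teff and at 870.0, 1118 and 1124 FPKM in Scd-1-/- Teff (ENSMUSG00000032011, chr9:44043384-44048579, plus strand). The replicate 1 libraries were the lowest of both genotypes, and the groups overlapped. The log2 fold change was 0.12 (SE 0.138, 95% interval -0.20 to 0.44, adjusted p = 0.848 by edgeR with Benjamini-Hochberg adjustment).

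Cd52 encodes a very short peptide that carries a large glycan and is the target of alemtuzumab in its human form. It was at 576, 463 and 493 FPKM in WT Teff and at 531, 532 and 570.1 FPKM in Scd-1-/- Teff (ENSMUSG00000000682, chr4:134082448-134095082, minus strand). The groups overlapped, with WT replicate 1 the highest library of all. The log2 fold change was 0.11 (SE 0.130, 95% interval -0.19 to 0.42, adjusted p = 0.853 by edgeR with Benjamini-Hochberg adjustment). It lay between 0.05 and 0.23 when 1 library was left out. Replicates 2 and 3 alone gave 0.24 (95% interval 0.01 to 0.47, unadjusted p = 0.0421, adjusted p = 0.154, same test). Crybg2 overlaps Cd52 on the opposite strand and had 59 to 145 counts. Whether reads were counted by strand is not given in the sources used here, and Cd52 itself had at least 9089 counts in every library.

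Of the 9 members, 6 had a log2 fold change above 0 and 3 below. None passed the thresholds of the study in the unblocked edgeR fit, as 0.738% of all genes tested did, and none had an adjusted p under 0.05, as 0.114% of all genes did. At an unadjusted p under 0.05 it called 2 of 9, Cd48 and Cd24a (10.1% of all genes), while DESeq2 and limma on log2(FPKM + 1) called 4 each, these and both Ly6c copies (11.1% and 10.4%). The groups did not overlap for 3 of 9, against 16.0% of all genes.

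With the replicate block, 3 of 9 had an adjusted p under 0.05, Cd48 in the upward and Cd24a and Ly6a in the downward direction, against 4.7% of all genes, and none passed the thresholds of the study (1.91% of all genes). With replicates 2 and 3 alone, 4 of 9 had an adjusted p under 0.05 (12.6% of all genes) and 1, Cd24a, passed the thresholds (3.83%). The median log2 fold change was 0.11 over the members and 0.00 over all genes tested, and the median size was 0.54 and 0.18.

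**Figure D3:**
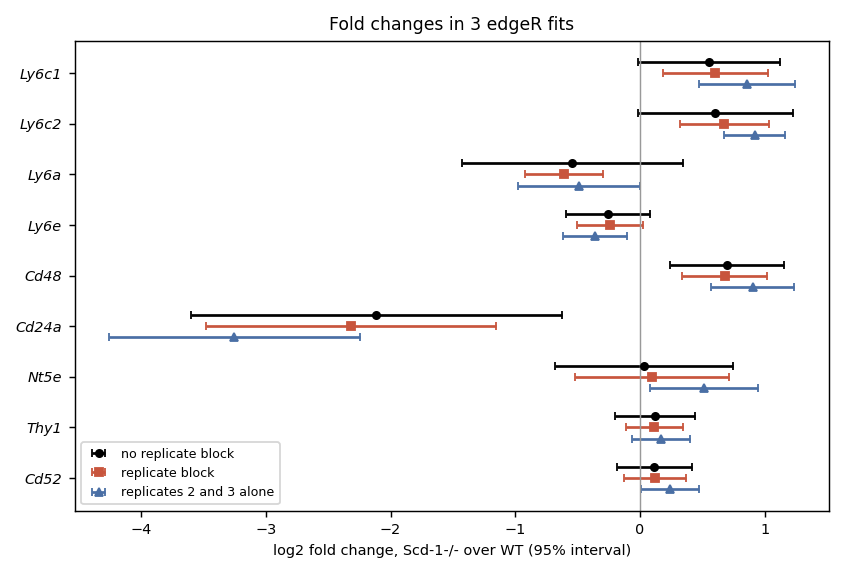
Log2 fold change of Scd-1-/- over WT Teff (x axis) for the 9 genes in 3 edgeR fits, with bars for the 95% interval: all 6 libraries without a replicate block, the same with the block, and replicates 2 and 3 alone. The signs are the same in the 3 fits for all 9 genes, and the intervals of all 9 are narrower with the block than without it.

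Read by replicate number, 7 of the 9 genes went the same way in all 3 pairs, against 45.2% of all genes tested. Ly6c1, Ly6c2, Cd48 and Thy1 were higher in each Scd-1-/- library than in the WT library of the same number, and Ly6a, Ly6e and Cd24a were lower. In replicate 1 the ratio was 1.01 for Thy1 and 0.999 for Ly6e, so the count of 7 rests in part on near-equal values. Cd52 and Nt5e were lower in Scd-1-/- replicate 1 and higher in replicates 2 and 3. The size differed by number: the ratio of Ly6c2 was 1.14 in replicate 1 and 1.85 and 1.83 in replicates 2 and 3, and that of Cd48 was 1.17 against 1.88 and 1.78. The ratio of Cd24a was 0.455 in replicate 1, 0.193 in replicate 2 and 0.0519 in replicate 3, whereas Ly6a was lower in replicates 1 and 2 (0.592 and 0.547) than in replicate 3 (0.822).

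**Figure D4:**
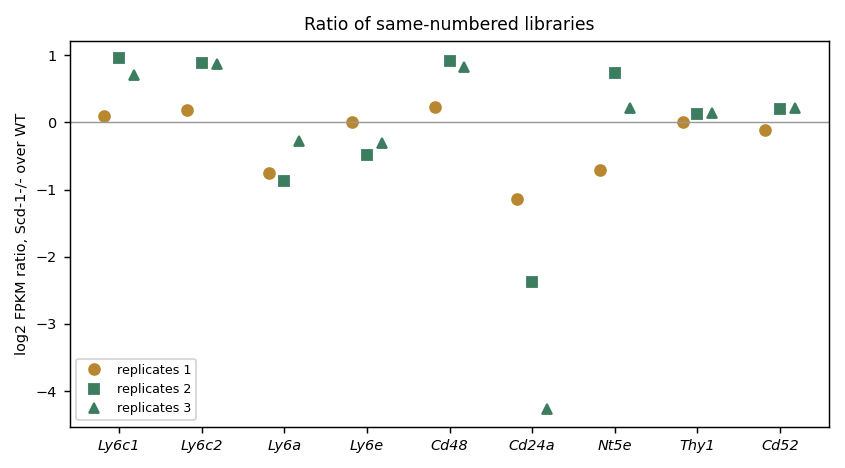
Log2 of the FPKM ratio of each Scd-1-/- library to the WT library with the same replicate number (y axis) for the 9 genes, with 1 symbol per number. Replicate 1 is closer to 0 than replicates 2 and 3 for Ly6c1, Ly6c2, Ly6e, Cd48, Cd24a, Thy1 and Cd52, but not for Ly6a or Nt5e.

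Levels of different genes can be compared only per length, and the length used matters here. By the deposited FPKM the order was Thy1, Cd52, Ly6c2, Cd48, Ly6a, Ly6e, Ly6c1, Cd24a and Nt5e. Over the 6 libraries the ranges of Ly6c2 and Cd48, Cd48 and Ly6a, Ly6a and Ly6e, and Cd24a and Nt5e overlapped. Within a library, Ly6c2 was above Cd48 in 6 of 6, whereas Cd48 was above Ly6a and Cd24a above Nt5e in 4 of 6, and Ly6a above Ly6e in 3 of 6. The length behind each deposited FPKM, found from counts and library totals, was 12485 bases for Ly6e, 3452 for Ly6a and 4361 for Ly6c2, longer than the whole span of these genes (4855, 3155 and 3813 bases in GENCODE M21). Of 11886 genes checked, 8.72% had such a length.

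Divided by the union of annotated exons instead (3784 bases for Ly6e, 1205 for Ly6a), the WT mean was 247 FPKM for Ly6e and 268 FPKM for Ly6a. On that scale the order was Cd52, Thy1, Ly6c2, Ly6e, Ly6a, Cd48, Ly6c1, Nt5e and Cd24a, and Ly6e was above Cd48 rather than below it. The ranges of neighbours were then separate only from Thy1 to Ly6c2, from Cd48 to Ly6c1 and from Ly6c1 to Nt5e. On either scale Thy1 and Cd52 were the most abundant and Cd24a and Nt5e the least. Fold changes between genotypes do not depend on the length.

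The gene nearest to each member in its pattern was found by the root mean square difference of mean-centred log2(FPKM + 1) over the 6 libraries, among all 9627 genes tested. The differences were 0.0142 for Thy1 and Ralgapb, 0.0209 for Cd52 and Hspa4l, 0.0389 for Ly6e and Acy1, 0.0619 for Ly6c1 and Cmc1 and 0.0706 for Ly6c2 and Rom1. They were 0.0739 for Cd48 and Sarnp, 0.0811 for Nt5e and Gm7030, 0.102 for Ly6a and Tnp2 and 0.187 for Cd24a and Sdc3. Sdc3, a membrane proteoglycan gene, had 360, 252 and 296 counts in WT and 191, 40 and 32 counts in Scd-1-/- Teff, so that replicate 1 was again the highest Scd-1-/- library (log2 fold change -1.84, adjusted p = 0.376 by edgeR with Benjamini-Hochberg adjustment). Ly6c1 and Ly6c2 were not each other's nearest gene.

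The members were set beside wider lists of genes. Of 33 other symbols of the Ly6 and uPAR family, 29 were in the files, 19 were at 0 in every library and only 3 reached the FPKM minimum. Ly6k, best known from the testis, was at 2.40, 6.45 and 15.8 FPKM in WT Teff and 1.63, 1.10 and 0.835 FPKM in Scd-1-/- Teff, without overlap but with a wide WT spread (log2 fold change -2.74, adjusted p = 0.205, with the block 0.0595). Ly6g5b was at 2.53 ± 0.777 and 4.55 ± 0.208 FPKM (0.86, adjusted p = 0.352), and Lypd6b at 1.98 ± 0.241 and 0.985 ± 0.361 FPKM (-0.98, adjusted p = 0.361, all edgeR with Benjamini-Hochberg adjustment). All 3 had an unadjusted p under 0.05 by edgeR, DESeq2 and limma (10.1%, 11.1% and 10.4% of all genes tested). With DESeq2 1, Ly6k, passed an adjusted p under 0.05 and the study's thresholds, which 161 of 9627 genes passed.

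Of 47 genes for other GPI-anchored proteins, 46 were in the files and 12 were tested, 6 with a fold change above 0 and 6 below (median log2 fold change -0.03). Among these, 3 had an unadjusted p under 0.05 by edgeR, against 10.1% of all genes tested. DESeq2 put 2 past the thresholds of the study and limma 1, against 161 and 56 of 9627 genes. The unblocked edgeR fit put 1 past them, against 0.738% of all genes. Izumo1r, which encodes the folate receptor FR4 of regulatory and anergic T cells, was at 6.48 ± 0.510 FPKM in the WT and 2.26 ± 0.578 FPKM in the Scd-1-/- libraries (log2 fold change -1.49, unadjusted p = 0.000267, adjusted p = 0.0837, with the block 0.0112). With the block in edgeR 3 of the 12 had an adjusted p under 0.05, against 4.7% of all genes. Besides Izumo1r, Gpc1, for a glypican, rose (0.70, adjusted p = 0.0196) and Sema7a, for a semaphorin that binds integrins, fell (-1.03, adjusted p = 0.0483). Gpc1 and Sema7a were named after their values were seen. Cd14, the co-receptor for lipopolysaccharide and a myeloid marker, was under the FPKM minimum, at 0.289 ± 0.151 FPKM in the WT and 1.55 ± 0.378 FPKM in the Scd-1-/- libraries. In the edgeR fit without a minimum it passed the thresholds of the study but not an adjusted p under 0.05 (log2 fold change 2.41, adjusted p = 0.0956).

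The machinery that builds, transfers and remodels the anchor was read from 31 genes, of which all 31 were in the files and 25 were tested. By edgeR 0 passed the study's thresholds, without the block (0.738% of all genes tested) or with it (1.91%). An adjusted p under 0.05 was reached by 0 as well, without the block (0.114% of all genes) or with it (4.7%). At an unadjusted p under 0.05 the count was 0 without the block (10.1% of all genes) and 1 with it (share of all genes not reported here). DESeq2 and limma gave 0 (11.1% and 10.4% of all genes). Their fold changes were above 0 for 14 and below 0 for 11, with a median log2 fold change of 0.05. The most abundant was Pigs, a subunit of the transamidase that attaches the anchor, at 65.2 ± 2.69 FPKM in WT Teff and 61.9 ± 6.92 FPKM in Scd-1-/- Teff (log2 fold change -0.05, adjusted p = 0.938, edgeR with Benjamini-Hochberg adjustment). Dpm3, of the enzyme that makes the mannose donor, was at 40.4 ± 5.51 and 38.5 ± 8.74 FPKM, and Pigt, another transamidase subunit, at 26.4 ± 3.58 and 25.2 ± 2.03 FPKM.

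Of 15 symbols for partners of the members, 14 were in the files and 11 were tested. Cd244, 1 of the 11, passed the thresholds of the study in the unblocked edgeR fit, against 0.738% of all genes tested. With the block 2 of the 11, Cd244 and Entpd1, had an adjusted p under 0.05, against 4.7% of all genes. The median log2 fold change was 0.07, with 7 above 0 and 4 below. Siglecg, a receptor for CD24, had at most 4 counts in any library.

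**Figure D5:**
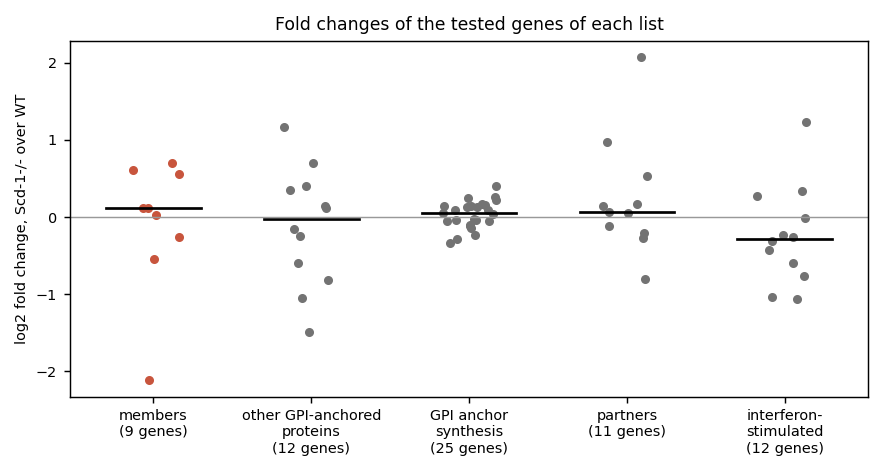
Log2 fold change of Scd-1-/- over WT Teff (y axis) in the unblocked edgeR fit for the tested genes of 5 lists, with 1 point per gene and a line at the median. The genes of GPI anchor synthesis lie closest to 0, and Cd24a, Izumo1r and Cd244 lie farthest from it in their lists.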

How the data were processed

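RNA-seq of 3 WT and 3 Scd-1-/- Teff libraries was used, grouped by the genotype in the labels. The methods and labels differ on the kit (a stranded total RNA kit against a poly(A) kit). The authors mapped the reads to GRCm38 with HISAT2, quantified them with StringTie 1.3.0, and deposited for each gene a raw count and an FPKM, which is the count scaled to gene length and library total. The members and lists were chosen with earlier results of these data known.

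Counts were tested with edgeR 4.0.16 (quasi-likelihood, TMM scaling, R 4.3.3) on genes averaging 1 FPKM or more, with Benjamini-Hochberg adjustment over all 9627 genes. The study's thresholds are a log2 fold change of 1 or more in either direction and an unadjusted p under 0.001. For 1 gene alone, permuting 3 libraries against 3 exactly gives p = 0.1 at the lowest. The scripts were tested on simulated data.

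Alternatives were DESeq2 1.42.0, limma 3.58.1 on log2(FPKM + 1) and log2(FPKM + 0.1), median-ratio scaling, no FPKM minimum or a minimum of 5, a replicate block, leaving out each library, and replicates 2 and 3 alone. The deviations of same-numbered libraries from their group means, taken over the 9627 genes, correlated with r = 0.630, 0.348 and 0.530 for replicates 1, 2 and 3. Of the mismatched pairs, WT replicate 3 with Scd-1-/- replicate 2 gave r = 0.401 and WT replicate 2 with Scd-1-/- replicate 3 gave 0.177, while those joining replicate 1 to another number lay between -0.598 and -0.332. The correlations thus set replicate 1 apart and do not separate replicates 2 and 3. The numbers were used as a block because every same-numbered r was above 0.1, by the data alone, since the labels do not say what a number stands for. Blocked values appear where they alter a call.

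Named in the text are the members, Scd1, the genes of each list past the thresholds (or, in a list with none, those with the highest level), the partners tied to a member, cell type markers, and the gene nearest to each member. Positions are those of GENCODE M21, matched by identifier for 34267 of 34745 genes. Coding sequences were aligned with edlib 1.3.9.post1. No protein sequence was used here, and values of some listed genes are not reported here.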

Additional observations from a re-analysis of the deposited data

How the results depend on the processing

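Of 124 fold changes of members under 14 alternatives, 119 kept their direction and their side of the thresholds, 2 of Cd24a passed them, and 3 of Nt5e turned sign (-0.16 without WT replicate 2, -0.11 without WT replicate 3 and -0.10 without Scd-1-/- replicate 2, against 0.44 without WT replicate 1). Cd24a and Nt5e have no value under an FPKM minimum of 5. The number of genes past the thresholds, 71, was 148 without a minimum, 43 with a minimum of 5, 161 with DESeq2, 369 with replicates 2 and 3 alone, and 25 to 163 when 1 library was left out. It was 25 without WT replicate 2 or without WT replicate 3, 26 without Scd-1-/- replicate 3, 31 without Scd-1-/- replicate 2, 143 without WT replicate 1 and 163 without Scd-1-/- replicate 1. With the replicate block it was 184, and 3 members (Cd48, Cd24a and Ly6a) had an adjusted p under 0.05. The block changed no other call of a member.

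Members past the thresholds numbered 0, or 1 (Cd24a) with replicates 2 and 3 alone (3.83% of all genes tested). They numbered 0 to 1 when a library was left out, against 25 to 163 of 9627 genes. Members with an adjusted p under 0.05 numbered 4 with replicates 2 and 3 alone (12.6% of all genes tested). They numbered 0 to 2 when a library was left out (share of all genes not counted): Ly6c2 without WT replicate 1, and Cd48 and Cd24a without Scd-1-/- replicate 1. The cause was not tested. Over the 14 alternatives the median-ratio scaling moved the median of all genes by less than 0.01 on the log2 scale. Depth limits Cd24a most, at 7 counts in Scd-1-/- replicate 3.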
